A study of Homo sapiens with 6 samples.

Results

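The enzymes of the pentose phosphate pathway, together with the malic enzyme and the isocitrate dehydrogenases that also make NADPH, were examined in KYSE70 and NRF2null-KYSE70 cells. The group was chosen by gene symbol and holds 9 of the 58884 genes in the table, which are PGD, PGLS, RPIA, RPE, TKT, TALDO1, ME1, IDH1 and IDH2. Each symbol had 1 row, and all 9 genes passed the filter on low values, a mean normalized count of at least 10. KYSE70, a long-established line of human esophageal squamous cell carcinoma (ESCC), has a mutated NFE2L2 gene, which encodes the transcription factor NRF2. NRF2null-KYSE70 was derived from it by CRISPR-Cas9 cutting of NFE2L2 and grown from 1 clone, so the lines differ by clone as well as by genotype. Both lines were untreated and grown in the same medium, and each gave 3 RNA-seq libraries. Nothing states that the libraries came from separate cultures, so p-values measure only the spread between these libraries, which may be technical.

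NADPH is the electron donor that cells use to regenerate glutathione and thioredoxin and to build fatty acids and sterols. The pentose phosphate pathway has an oxidative branch, which makes NADPH and ribulose 5-phosphate, and a non-oxidative branch, in which sugar phosphates are converted into one another and can return to glycolysis or supply ribose for nucleotides. ME1, IDH1 and IDH2 make NADPH from malate or isocitrate, the first pair in the cytosol and IDH2 in mitochondria. Several of these genes are known as NRF2 targets in tumor cells. The comparison addresses how this group of enzymes differed at the RNA level between a line with mutant NRF2 and its edited clone.

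Expression of PGD, TKT, IDH1, TALDO1 and ME1 was lower in NRF2null-KYSE70 cells, that of RPIA and RPE was higher, and PGLS and IDH2 did not pass the test. TKT retained 52.9% of the parental level and PGD 54.4%, whereas IDH1 and TALDO1 retained 66.5% and 68.8%. RPIA and RPE, which act on the product of the oxidative branch, stood at 147% and 131% of the parental level. Of the 9 genes, 5 (55.6%) were lower at a limma adjusted p under 0.05, against 28.3% of the 15994 tested genes. The 2 higher genes were 22.2% of the group, against 29.3% of tested genes, and in either direction 7 genes (77.8%) passed, against 57.6%. No member reached an absolute log2 fold change of 1, which 14.7% of tested genes did together with the adjusted p (7.43% lower and 7.23% higher). For 7 of the 9 genes, all libraries of the clone stood to the same side of all parental ones, against 63.4% of tested genes. Of these, 5 were lower and 2 higher, against 31.3% and 32.1% of tested genes. The median log2 fold change was -0.15 over the 9 genes and -0.01 over all tested genes, and the median absolute value was 0.54 against 0.36. In RNA from whole cultures, fewer cells expressing a gene and less RNA per cell cannot be told apart.

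The libraries held between 52072801 and 63975313 reads assigned to genes. NFE2L2 itself retained 61.4% (log2 fold change -0.71, limma adjusted p = 9.37e-08) and was lower in each library of the clone. This RNA level does not show how much NRF2 protein was made, and the study describes a faint, smaller NRF2 protein left in the clone. All 8 squamous epithelial markers examined were expressed, and 3 were lower and 5 higher in the clone, with a median log2 fold change of 0.38. Their summed normalized counts were 310612 to 317989 in KYSE70 and 233173 to 245252 in NRF2null-KYSE70, a sum that followed the keratin KRT5, which fell to 59.4%, while KRT6A rose to 161%. Of 5 markers of leukocytes, endothelium and fibroblasts, COL1A1 and PTPRC passed the filter, CD3E and PECAM1 had 1 read each and DCN had 0. Their summed counts, 1172 to 1333 in KYSE70 and 503 to 654 in NRF2null-KYSE70, were mostly those of COL1A1, a fibroblast collagen that fell to 45.0%. PTPRC, a leukocyte marker, moved the other way, with normalized counts of 0, 0 and 1.05 in the parental libraries and 42.6, 40.2 and 47.9 in the clone. The part of these markers in the results was not tested.

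The DNA just before the RefSeq starts of these genes was searched for the core of the antioxidant response element. NRF2 binds this element together with a small MAF protein. Promoter windows from RefSeq (GRCh38.p14) ran from 250 bases before to 50 bases after each start. All 9 genes matched by symbol, IDH1 with windows at 2 starts. The letters searched were TGACNNNGC on both strands, in which N is any base. A match was found for PGD, RPE, ME1 and IDH1, and for 13.35% of all 35116 windows or 14.6% of the 15639 windows of tested genes. The matches before the start are shown so that they can be set beside the changes in expression. The matched letters are in capitals, flanked by 10 bases on each side and read 5′ to 3′ in the direction of the gene.
PGD: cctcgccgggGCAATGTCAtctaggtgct
RPE: ggcggacggcTGACAGCGCcccaccccag
ME1: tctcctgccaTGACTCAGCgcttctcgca
IDH1: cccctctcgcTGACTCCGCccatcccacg

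The match of PGD lies on the opposite strand, so its capitals show the reverse complement. The windows are chr1:10398853-10398881 for PGD and chr2:210002477-210002505 for RPE, both on the plus strand of the genome. Those of ME1 and IDH1 are chr6:83431170-83431198 and chr2:208255196-208255224, both on the minus strand. The windows of PGD and IDH1 lie inside the gene spans given below, which come from GENCODE and begin farther upstream than the RefSeq starts. The RefSeq start of IDH2 also lies inside its span. The matches began 151 bases before the start in RPE, 137 in ME1 and 143 in IDH1, and farther upstream in PGD. ME1 had another match, on the opposite strand, that began 11 bases after the start. The ME1 match also holds TGACTCA, the letters of the AP-1 element. PGD, ME1 and IDH1, which fell, had a match in this window, and TKT and TALDO1, which also fell, had none. Of the genes that rose, RPE had a match and RPIA had none. With the looser TGANNNNGC, PGLS was added, while 41.8% of all windows held these letters. A match is a description of the letters and not evidence of binding. Sites farther from these starts, or at other starts of the genes, were not searched.

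**Figure D1:**
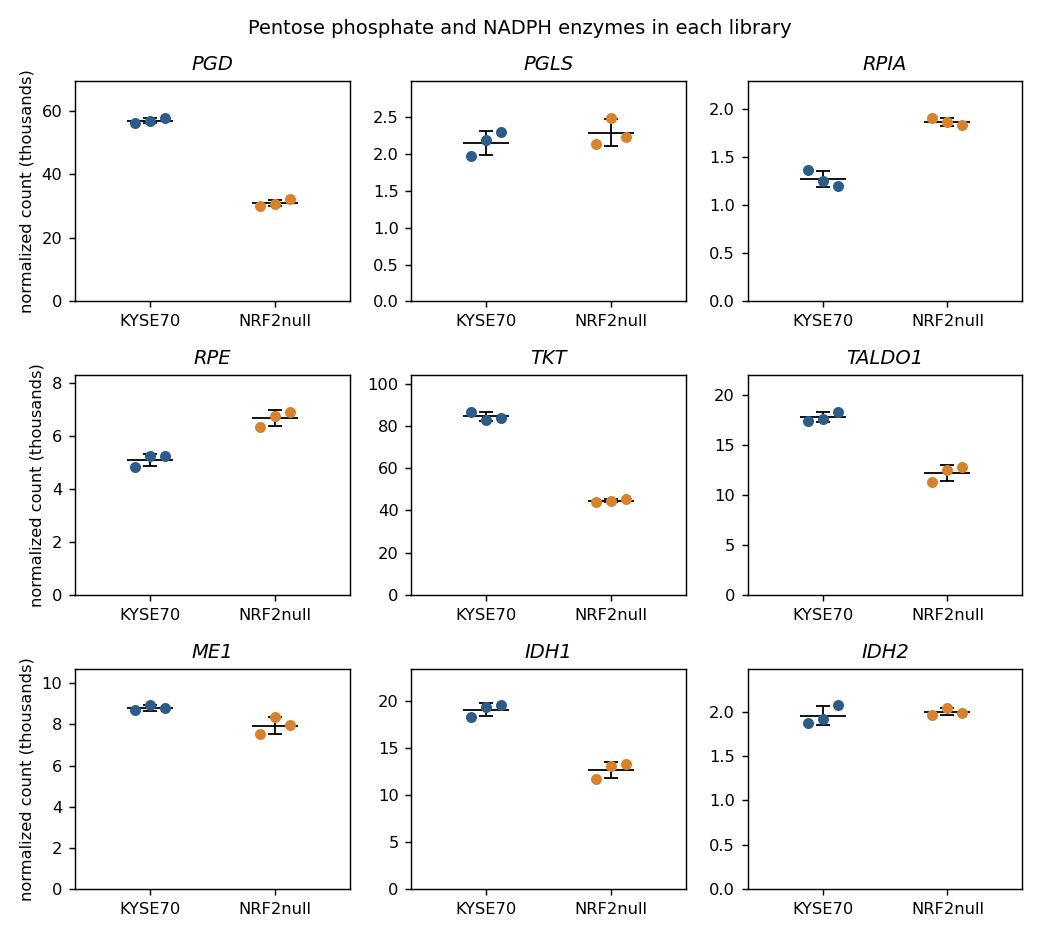
Normalized counts (in units of 1000, linear axes from 0) of the 9 enzymes in the 3 libraries of KYSE70 (blue) and of NRF2null-KYSE70 (orange), with black bars for the mean and SD. The libraries of the lines do not overlap for 7 of the 9 genes, and they overlap for PGLS and IDH2.

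In the oxidative branch, PGD encodes 6-phosphogluconate dehydrogenase, which makes NADPH and ribulose 5-phosphate. PGD (ENSG00000142657, chromosome 1 from 10398592 to 10420511, hg38) had normalized counts, that is, reads divided by a size factor per library, of 56083, 56897 and 57835 in the KYSE70 libraries and 30106, 30700 and 32162 in those of NRF2null-KYSE70. Every library of the clone was far below every parental library. The log2 fold change was -0.88 (limma adjusted p = 5.91e-09, SE 0.045), and 19.6% of tested genes changed by more in absolute terms. PGLS (ENSG00000130313, chromosome 19 from 17511636 to 17521288) encodes 6-phosphogluconolactonase, which forms the substrate of PGD. Its normalized counts were 1980, 2193 and 2297 in KYSE70 and 2141, 2495 and 2233 in NRF2null-KYSE70, so the lines overlapped. The log2 fold change of 0.09 had a 95% interval from -0.08 to 0.25 (limma adjusted p = 0.346), and this interval lay wholly above that of PGD, from -0.98 to -0.78. The difference between these enzymes was not tested.

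Ribulose 5-phosphate is taken up by RPIA, the isomerase that makes ribose 5-phosphate, and by RPE, the epimerase that makes xylulose 5-phosphate. RPIA (ENSG00000153574, chromosome 2 from 88691673 to 88750929) had normalized counts of 1359, 1253 and 1201 in KYSE70 and 1907, 1863 and 1828 in NRF2null-KYSE70. All libraries of the clone were higher, with a log2 fold change of 0.56 (limma adjusted p = 1.40e-05, SE 0.067). RPE (ENSG00000197713, chromosome 2 from 210002565 to 210022260) had normalized counts of 4829, 5220 and 5232 in KYSE70 and 6321, 6736 and 6911 in NRF2null-KYSE70. These also did not overlap, and the log2 fold change was 0.39 (limma adjusted p = 4.74e-05, SE 0.054). The end of RPE overlaps KANSL1L on the other strand, and whether the counting used strand was not stated. KANSL1L rose, with normalized counts of 407 ± 34.4 in the parental line and 901 ± 31.4 in the clone (SD, n = 3 each, log2 fold change 1.15, limma adjusted p = 4.19e-07), and its part in the RPE value was not tested. The paralog RPEL1 had 15 reads in all 6 libraries together and stayed below the filter.

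TKT and TALDO1 encode transketolase and transaldolase, which carry out the carbon transfers of the non-oxidative branch. TKT (ENSG00000163931, chromosome 3 from 53224712 to 53256052) had normalized counts of 86768, 82732 and 83825 in KYSE70 and 44247, 44544 and 45312 in NRF2null-KYSE70. The libraries within each line lay close together and the lines were far apart. TKT had the largest absolute change of the 9 genes, with a log2 fold change of -0.92 (limma adjusted p = 3.63e-09, SE 0.045). On its arm, 3p, the 316 protein-coding genes at a mean of 50 or more had a median of -0.48, and the 40 of them nearest to TKT had a median of -0.51. After subtraction of the median of the arm (arm-centring), the value was -0.44 (limma adjusted p = 4.70e-06). The paralogs TKTL1 and TKTL2 had no reads. TALDO1 (ENSG00000177156, chromosome 11 from 747415 to 765012) had normalized counts of 17379, 17568 and 18337 in KYSE70 and 11347, 12499 and 12825 in NRF2null-KYSE70. The lines did not overlap, and the log2 fold change was -0.54 (limma adjusted p = 2.07e-06, SE 0.053).

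Among the dehydrogenases outside the pathway, IDH1 (ENSG00000138413, chromosome 2 from 208236229 to 208266074) had normalized counts of 18324, 19373 and 19543 in KYSE70 and 11727, 13066 and 13247 in NRF2null-KYSE70. Each library of the clone was lower, with a log2 fold change of -0.59 (limma adjusted p = 1.18e-06, SE 0.054). The 40 nearest genes on 2q had a median of 0.33, so IDH1 fell among neighbours whose median was higher. IDH1-AS1, which overlaps IDH1 on the other strand, stood at 29.0 ± 9.11 normalized counts in the parental line against 51.8 ± 16.5 in the clone (SD, n = 3 each, limma adjusted p = 0.0633). IDH2 (ENSG00000182054, chromosome 15 from 90083045 to 90102477) had normalized counts of 1876.5, 1922 and 2072 in KYSE70 and 1967, 2042 and 1990 in NRF2null-KYSE70. The lines overlapped, and the log2 fold change was 0.03 with a 95% interval from -0.10 to 0.16 (limma adjusted p = 0.678). The sign of IDH2 depended on the scaling, since it was -0.04 under total scaling (limma adjusted p = 0.568). After arm-centring it was -0.30 and passed the test (limma adjusted p = 0.00149). The median of 15q was 0.33, but that of the 40 genes nearest to IDH2 was 0.10.

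ME1, the cytosolic malic enzyme (ENSG00000065833, chromosome 6 from 83210402 to 83431051), had the smallest difference that passed the test. Its normalized counts were 8682, 8930 and 8783 in KYSE70 and 7514, 8341 and 7982 in NRF2null-KYSE70. The lowest parental library stood above the highest library of the clone, but the gap was narrow beside that of TKT or PGD. The log2 fold change was -0.15 (limma adjusted p = 0.0215, SE 0.050), with a 95% interval from -0.26 to -0.04. The call was lost when KYSE70 library 2 (limma adjusted p = 0.0822) or library 3 (limma adjusted p = 0.0567) was left out, and the size was -0.30 after arm-centring. Without KYSE70 library 2 or library 3, the count of lower members was 4.

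**Figure D2:**
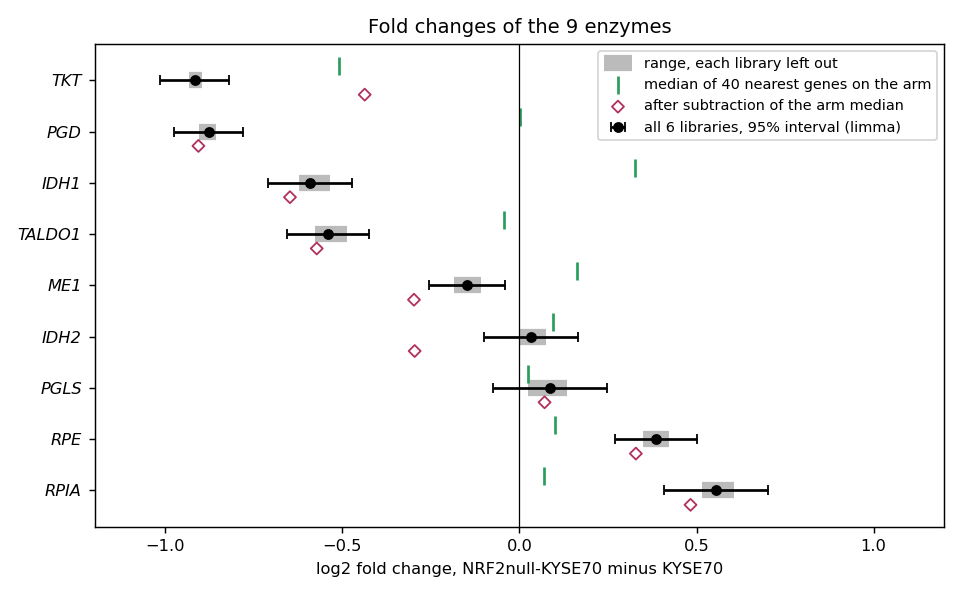
Log2 fold changes of the 9 enzymes (NRF2null-KYSE70 minus KYSE70), with the limma estimate and 95% interval in black, the range over the fits that left out each library in grey, the value after arm-centring as red diamonds and the median of the 40 nearest genes on the arm as green ticks. TKT at -0.92 stands among neighbours with a median of -0.51, whereas PGD at -0.88 stands among neighbours with a median near 0.

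Libraries of the same line differed little for these genes. The coefficient of variation was 1.42% to 7.50% in KYSE70 and 1.23% to 8.01% in NRF2null-KYSE70. The members' medians were 3.46% and 4.55%, against 3.96% and 5.20% for the 8107 tested genes with a mean of at least 1000. Within NRF2null-KYSE70, library 1 gave the lowest value for 8 of the 9 genes, all but RPIA, and it was the lowest library for 36.2% of tested genes. Within KYSE70, library 1 was the lowest for 7 of the 9 genes, all but RPIA and TKT, and for 34.8% of tested genes. Without NRF2null-KYSE70 library 1, the same direction and call were obtained for all 9 genes, and TKT had a value of -0.91, PGD -0.86, TALDO1 -0.49, IDH1 -0.54 and ME1 -0.11. Which property of the libraries goes with this order was not tested.

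Levels were compared between genes only per length, as TPM, which scales reads by exon length and library, from the recovered reads and the union of annotated exons. PGD had the highest level, at 1204 ± 8.09 TPM in the parental line and 643 ± 17.1 in the clone (SD, n = 3 each). TKT followed with 626 ± 19.9 and 325 ± 3.92, TALDO1 with 431 ± 6.36 and 291 ± 14.4, and IDH1 with 286 ± 8.05 and 187 ± 9.50 (SD, n = 3 each). ME1 and RPE came next, with 186 ± 3.83 and 102 ± 4.01 TPM in KYSE70 (SD, n = 3). By this length, PGLS, IDH2 and RPIA were the lowest in KYSE70, at 53.5 ± 3.47, 49.5 ± 1.90 and 49.4 ± 3.68 (SD, n = 3), and these neighbours overlapped in their libraries. In NRF2null-KYSE70 no neighbours in the order overlapped, and RPIA, at 71.2 ± 2.54 (SD, n = 3), stood above PGLS and IDH2.

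**Figure D3:**
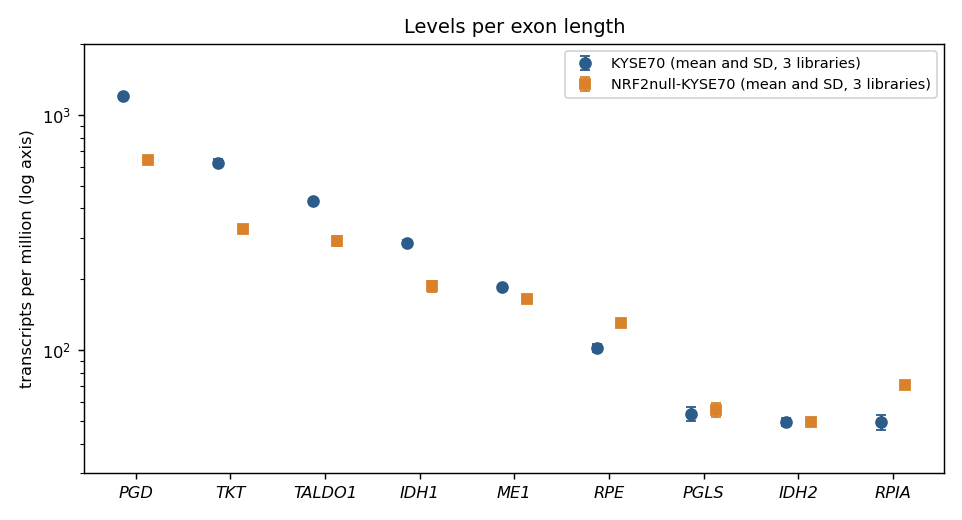
Levels of the 9 enzymes in TPM (log axis) from the union of exons, as mean and SD of 3 libraries for KYSE70 (blue circles) and NRF2null-KYSE70 (orange squares), in the order of the KYSE70 level. PGD, TKT, TALDO1 and IDH1 are the highest in both lines and are lower in NRF2null-KYSE70, and RPIA and RPE are higher there.

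The top place of PGD depended on the length used. With the longest coding transcript, TKT had 1222 ± 44.5 and PGD 1088 ± 5.85 TPM in KYSE70 (SD, n = 3), because the union of exons of TKT is 9502 bases and its longest coding transcript is 2996 bases. The ranks of TALDO1, IDH1 and ME1 did not depend on it. The order at the bottom did, because PGLS then had 92.7 TPM in the parental line, above RPE at 69.4, and in the clone PGLS had 97.7 and RPIA 44.3. Summed over the 9 genes, the level was 2987 ± 11.7 TPM in the parental line and 1917 ± 40.7 in the clone (SD, n = 3 each), or 64.2% of the parental sum. By the union of exons, PGD made up 40.3% of the sum in KYSE70 and 33.5% in NRF2null-KYSE70, and the share of RPE went from 3.41% to 6.81%. With the longest coding transcript, TKT had the largest share, 33.8% in KYSE70 and 28.6% in NRF2null-KYSE70. PGD then had 30.1% and 26.2%, and RPE 1.92% and 4.01%. The sum therefore follows its most abundant members, and a low member such as RPIA adds little to it.

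Ratios between enzymes within a library do not depend on the scaling of that library, and 4 pairs were compared with an exact two-sided permutation test. For 3 libraries against 3, the smallest p that this test can give is 0.1. The IDH1/IDH2 log2 ratio of normalized counts was 3.29, 3.33 and 3.24 in KYSE70 and 2.58, 2.68 and 2.73 in NRF2null-KYSE70, so each library of the clone had the lower ratio. The difference was -0.62 (exact permutation p = 0.1, adjusted p = 0.2 over the 4 pairs). After arm-centring IDH1 had a log2 fold change of -0.65 and IDH2 -0.30, so these enzymes were then closer together. The TKT/TALDO1 log2 ratio was 2.32, 2.24 and 2.19 in KYSE70 and 1.96, 1.83 and 1.82 in NRF2null-KYSE70. These values did not overlap either, with a difference of -0.38 (exact permutation p = 0.1, adjusted p = 0.2). TKT and TALDO1 are on different chromosome arms, and after arm-centring TKT had -0.44 and TALDO1 -0.57, so the order of these falls was turned.

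The PGD/TKT log2 ratio was -0.63, -0.54 and -0.54 in KYSE70 and -0.56, -0.54 and -0.49 in NRF2null-KYSE70. The lines overlapped, with a difference of 0.04 (exact permutation p = 0.5, adjusted p = 0.5) between the most abundant enzymes of the oxidative and non-oxidative branches. The difference was 0.0088 without KYSE70 library 1, 0.022 without NRF2null-KYSE70 library 3, and at most 0.056 without any other library. PGD is on 1p, where the median was 0.03, and TKT on 3p, where it was -0.48. After arm-centring PGD had -0.91 and TKT -0.44, so the falls of these enzymes were then no longer alike. The RPIA/RPE log2 ratio was -1.83, -2.06 and -2.12 in KYSE70 and -1.73, -1.85 and -1.92 in NRF2null-KYSE70. These values overlapped as well, with a difference of 0.17 (exact permutation p = 0.3, adjusted p = 0.4). It was 0.26 without KYSE70 library 1 and 0.11 without KYSE70 library 3. None of the 4 differences passed the threshold, which this design could not reach.

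**Figure D4:**
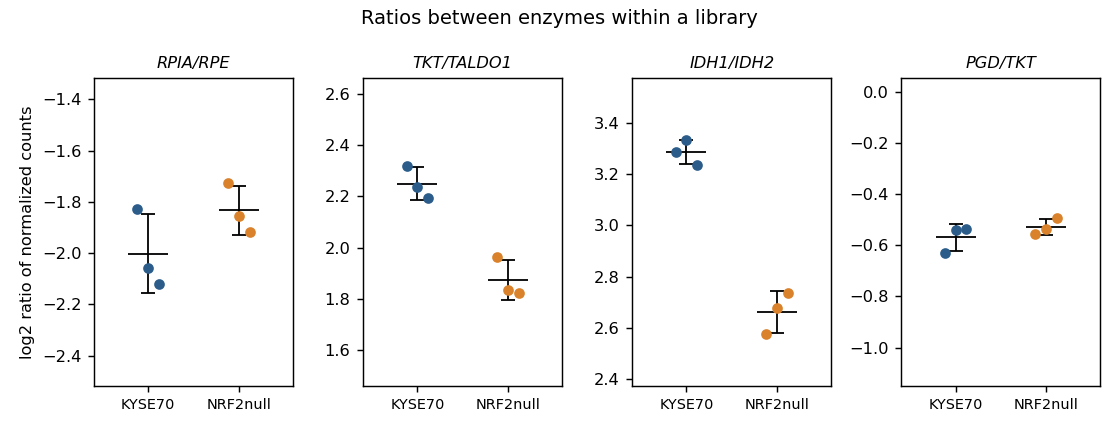
Log2 ratios of normalized counts between pairs of enzymes in each library of KYSE70 (blue) and NRF2null-KYSE70 (orange), with the mean and SD as black bars and axes of equal span that do not start at 0. The lines are apart for TKT/TALDO1 and IDH1/IDH2 and overlap for RPIA/RPE and PGD/TKT.

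TKT was compared with the other tested genes with a mean of at least 100, by the root mean square difference over the 6 libraries of log2 values centred on the KYSE70 mean. The genes most like it were PLXNB1, a plexin receptor, with a difference of 0.027, STAT6, a transcription factor of interleukin-4 signaling, with 0.029, and RARG, a retinoic acid receptor, with 0.031. Their log2 fold changes were -0.94, -0.94 and -0.90, values that follow from the choice of genes, since it used the same 6 libraries. After arm-centring they were -0.46, -0.56 and -0.52, and TKT was -0.44.

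Genes linked to the 9 enzymes were then compared from 5 lists written from general knowledge, though with earlier results of these data known. The first list holds enzymes and regulators that feed the pentose phosphate pathway or use its products. Of 16 genes, 12 were tested, 5 were lower and 4 higher at a limma adjusted p under 0.05, and the median log2 fold change was -0.21. In either direction 75.0% of the 12 were called, against 57.6% of all tested genes (28.3% lower and 29.3% higher). The lower count was 3 without KYSE70 library 3 or without NRF2null-KYSE70 library 1. PRPS2, which makes the nucleotide precursor PRPP from ribose 5-phosphate, rose, from 12072 ± 209 normalized counts to 22174 ± 976 (SD, n = 3 each, log2 fold change 0.88, limma adjusted p = 7.58e-09). Its paralog PRPS1 went the other way, with a log2 fold change of -0.32 (limma adjusted p = 0.000102). TIGAR, a phosphatase that slows glycolysis and favors the pentose phosphate pathway, rose to 158% of the parental level (limma adjusted p = 2.81e-05). SHPK, which forms sedoheptulose 7-phosphate, fell to 77.9% (limma adjusted p = 0.0474), a call that was lost when any 1 of the 6 libraries was left out. PRPS2 and RPIA, which lie on the route from ribulose 5-phosphate to PRPP, were thus both higher, and PRPS1 on the same route was lower.

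The second list holds other enzymes that make NADPH or NADP. Of 10 genes, 9 were tested, and the median log2 fold change was 0.15. Of these 9, 1 was lower and 4 were higher, or 55.6% called, against 57.6% of all tested genes. This split depended on the scaling, since 3 were lower and 3 higher under quantile normalization and under total scaling. The lower count was also 3 after arm-centring, and it was 2 without NRF2null-KYSE70 library 1. ALDH1L1, the cytosolic formyltetrahydrofolate dehydrogenase, rose, from 2174 ± 59.1 normalized counts to 5594 ± 104 (SD, n = 3 each, log2 fold change 1.36, limma adjusted p = 2.85e-10). It is on 3q, where the median was 0.28. MTHFD2, a mitochondrial folate enzyme that can use NAD or NADP, rose from 20966 ± 384 to 49188 ± 1284 (SD, n = 3 each, log2 fold change 1.23, limma adjusted p = 2.11e-10). H6PD, which makes NADPH inside the endoplasmic reticulum and is also on the first list, rose to 148% of the parental level (limma adjusted p = 0.000125). NADK2, the mitochondrial NAD kinase, fell to 89.3% (limma adjusted p = 0.00935). ALDH1L1 and MTHFD2 passed the log2 fold change of 1 that no pentose phosphate enzyme reached.

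NAD-linked counterparts of the malic enzyme and isocitrate dehydrogenases, with the malate dehydrogenases, formed the third list. Of 6 genes tested, 2 were lower and 2 higher, and the median log2 fold change was -0.07. In either direction 66.7% were called, against 57.6% of all tested genes. The higher count was 1 under total scaling and 0 under quantile normalization or arm-centring. IDH3B, a subunit of the NAD-linked isocitrate dehydrogenase of the citric acid cycle, fell to 56.9% of the parental level (log2 fold change -0.82, limma adjusted p = 3.55e-08). Its arm, 20p, had a median of -0.77, and after arm-centring IDH3B had -0.046 and did not pass (limma adjusted p = 0.469). The catalytic subunit IDH3A rose to 113% (limma adjusted p = 0.00334), but its arm, 15q, had a median of 0.33 and after arm-centring IDH3A was lower, at -0.15 (limma adjusted p = 0.0111). ME2, the mitochondrial NAD-linked malic enzyme, fell to 63.5% (limma adjusted p = 1.94e-07) and MDH2, the mitochondrial malate dehydrogenase, rose to 116% (limma adjusted p = 0.000661), a call lost under quantile normalization and arm-centring. ME2 fell further than ME1 in these values, but the difference between them was not tested.

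For the supply of citrate and malate, 4 of 8 genes were lower and 1 was higher, with a median log2 fold change of -0.12. The share called in either direction was 62.5%, against 57.6% of all tested genes. The lower count was 2 without KYSE70 library 3 or without NRF2null-KYSE70 library 2. CS, citrate synthase, fell to 66.2% of the parental level (limma adjusted p = 3.07e-07) and is on 12q, where the median was -0.38. The mitochondrial carriers SLC25A11, for oxoglutarate and malate, and SLC25A10, for dicarboxylates, fell to 80.1% and 75.4% (limma adjusted p = 0.000226 and 0.0279), although the libraries overlapped for SLC25A10 and its call was lost without KYSE70 library 1 or 3 or NRF2null-KYSE70 library 2. ACLY, which splits citrate in the cytosol for fatty acid synthesis, rose to 140% (limma adjusted p = 9.50e-07).

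The last list was written for reductases that spend NADPH. Of 10 genes tested, 5 were lower and 5 higher, with a median log2 fold change of 0.05. Thus 100% were called, against 57.6% of all tested genes. The higher count was 3 by limma without the trend. GSR, glutathione reductase, fell to 58.2% of the parental level (limma adjusted p = 7.02e-09) and is on 8p, where the median was -0.38. NQO1, a quinone reductase, fell to 52.4% (limma adjusted p = 1.43e-08). TXNRD2, the mitochondrial thioredoxin reductase, rose to 168% (limma adjusted p = 1.89e-07). SRXN1, sulfiredoxin, was on this list although its reaction uses ATP, and it fell, from 250 ± 91.6 normalized counts to 92.3 ± 43.0 (SD, n = 3 each, limma adjusted p = 0.00191). SRXN1 is also on 20p, and after arm-centring it had -0.68 and did not pass (limma adjusted p = 0.0875). Of the genes on the 5 lists, 4 passed both the adjusted p and a log2 fold change of 1, namely ALDH1L1, MTHFD2, SRXN1 and CBR1, and CBR1 had 144 reads in all, with overlapping lines.

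**Figure D5:**
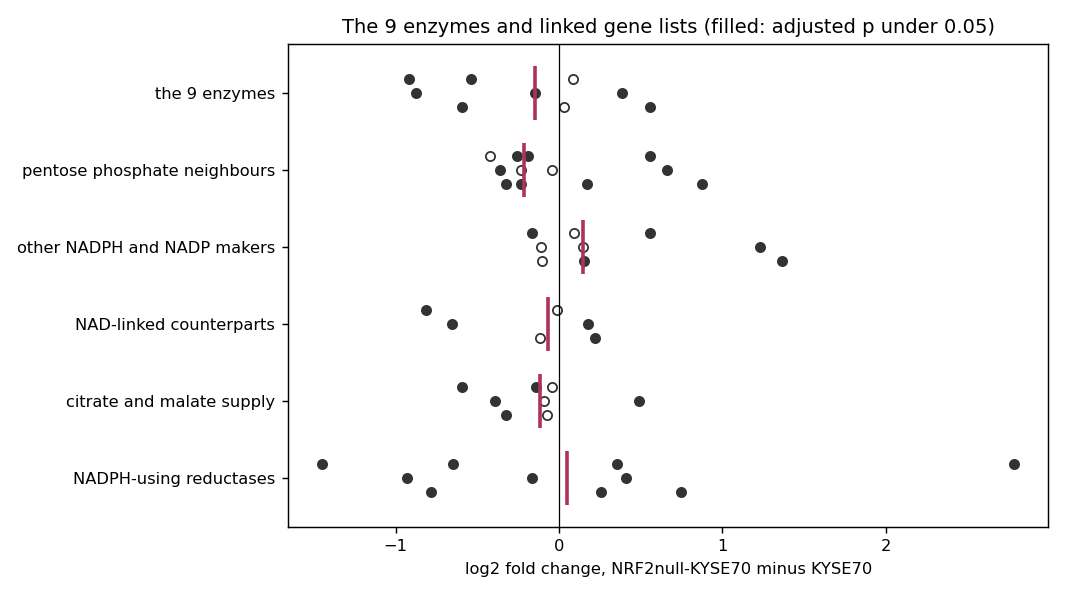
Log2 fold changes (NRF2null-KYSE70 minus KYSE70) of the 9 enzymes and of the tested genes on 5 linked lists, filled where the limma adjusted p was under 0.05 and open otherwise, with the median of each list as a red bar. The medians lie between -0.21 and 0.15, and genes of every list are found on both sides of 0.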

How the data were processed

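STAR (alignment to hg38), featureCounts (reads per gene) and DESeq2 (normalization) were used by the authors. Use of strand was not stated. The deposited unit was a signal, the reads of a gene after division by the size factor of its library. Columns named the cell line without a replicate number, so libraries are numbered by column order within each line. Every value was a whole multiple of 1 read (tolerance 0.1 read, 100% of values), and recovered reads gave the depth and the levels per length. No library was a second sequencing of another from its line, as each pair differed beyond sampling noise (chi-square per degree of freedom at least 4.59). Libraries prepared from the same culture can also differ in this way, so this does not show separate cultures. In NRF2null-KYSE70 the chi-square per degree of freedom was 23.4 and 23.0 for library 1 against libraries 2 and 3, and 4.59 for library 2 against 3. In KYSE70 the largest value was 12.5, for library 1 against 3.

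Genes with a mean of at least 10 were tested with limma 3.58.1 (trend) on log2(normalized count + 1), a scale that makes changes of sparse genes smaller. Two-sided p-values were adjusted (Benjamini-Hochberg) over all 15994 tested genes. Coordinates and exon lengths came from GENCODE v44 on hg38, which held 58472 of the gene identifiers, and the median of an arm was taken over its protein-coding genes at a mean of 50 or more. Alternatives were other pseudocounts, filters, scalings, limma settings, DESeq2 1.42.0 and edgeR 4.0.16 on the recovered reads, arm-centring and leaving out each library. The members and lists were chosen with earlier results of these data known. Besides the 9 members and NFE2L2, the genes named are overlapping or similarly named genes, and from each list up to 4 genes with the largest absolute change among those with an adjusted p under 0.05 and a mean of at least 100. PRPS1 and CBR1, and the markers by cell type, were named after their values were seen.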

Additional observations from a re-analysis of the deposited data

How the results depend on the processing

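Over 18 alternatives, PGD, TKT, TALDO1, IDH1, RPIA, RPE and NFE2L2 kept their direction and passed the test, and PGLS kept its direction and did not pass. ME1 stayed negative but missed the threshold in 3 alternatives, limma without the trend (limma adjusted p = 0.0754) and the fits without KYSE70 library 2 or 3. Over its alternatives the adjusted p of ME1 ranged from 0.000255 to 0.0822. IDH2 turned from 0.03 to -0.043 under total scaling and to -0.30 after arm-centring, and its adjusted p ranged from 0.00149 to 0.979. IDH3A turned from 0.18 to -0.15 after arm-centring. Among the other linked genes named, SHPK, IDH3B, MDH2, SLC25A10, SRXN1 and CBR1 kept their direction and lost the call in at least 1 alternative, and total scaling raised the lower count for citrate and malate supply from 4 to 6, as did arm-centring. IDH1-AS1 passed under quantile normalization (limma adjusted p = 0.0335) and without KYSE70 library 3 or NRF2null-KYSE70 library 1. The fold change of TKT ranged from -0.99 to -0.44, the last after arm-centring. A filter at a mean of 50 lowered the count of all genes past a log2 fold change of 1 from 2344 to 1511, with fewer genes tested, and left the members' counts as they were. No paired analysis was possible because the columns carry no replicate number. With 3 libraries per line, the exact permutation test of the ratios could not go below p = 0.1. The count of lower members ranged from 4 to 6, and it was 6 after arm-centring.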
